A study of Mus musculus with 5 samples.

Results

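The gene Lmbr1 and its neighbour Rnf32 were followed across 6 capture Hi-C maps of the Shh locus in mouse limb buds at E10.5. Capture Hi-C joins pieces of DNA that lie close together in the nucleus, enriches the joined pairs of one region with probes and counts them by sequencing. The members were the 5 kb bins of Rnf32 and of Lmbr1 without the 15 kb stretch chr5:29305001-29320000 (mm10), which divides Lmbr1 into a left part, toward Shh, and a right part. The rule gave 35 bins, and 34 of them were kept, of 548 kept bins among 558 in the map (chr5:27480001-30270000). Rnf32 gave 8 bins (chr5:29190001-29230000), the left part of Lmbr1 16 bins (chr5:29225001-29305000) and the right part 11 bins (chr5:29320001-29380000). Bin 29350001 of the right part was left out because it had too few partners. The bin at 29225001 belongs to both Rnf32 and the left part. Bins of one map share a library and are not replicates.

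The limb buds came from homozygous embryos of 5 genotypes, with 1 library each. Mating gave the embryos of intraTAD2, intraTAD3 and intraTAD2-i4CTCF. Those of intraTAD2-2xBorCTCF and intraTAD2-1xBorCTCF were made by tetraploid aggregation, where stem cells are combined with host embryos. The last 3 names are shortened to i4CTCF, 2xBorCTCF and 1xBorCTCF, and each of these genotypes also carries intraTAD2 in its name. The wild-type map belonged to no sample and is the authors' value. Its embryos were not described in the sources used here, so a genotype and the origin of its library cannot be told apart in ratios to wild type. The change made by each allele was not given either. For both BorCTCF maps the allele and the way the embryos were made cannot be told apart.

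Shh encodes a secreted signal that sets the order of the digits. Its limb enhancer, the ZRS, lies in an intron of Lmbr1, across a gene desert from Shh, so that one gene hosts the switch of another. Lmbr1 encodes a membrane protein and Rnf32 a RING finger protein. Shh, the desert and most of Lmbr1 fold as a topologically associating domain (TAD), a stretch of chromatin that contacts itself more than its surroundings, and CTCF is a DNA-binding protein found at the borders of such domains.

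The sequences before both start sites are shown because they place the promoters on the map, that of Rnf32 inside the domain and that of Lmbr1 past its border. The border on this side was sought only inside Lmbr1, so this order followed from the search and is not a result. They come from RefSeq (GRCm38.p6) and are given 5′ to 3′ on the strand of the gene, with matches to the GC box GGGCGG on either strand in capitals. The Rnf32 sequence is chr5:29195743-29195992 on the plus strand, 250 bases up to the start site at 29195993. This start site lies inside the annotated gene, which begins at 29192745, so the sequence does too. Bases inside the annotated gene were left out for Lmbr1 alone. The Lmbr1 sequence is chr5:29378422-29378640 on the minus strand, 219 bases beyond the end of the annotated gene.
Rnf32: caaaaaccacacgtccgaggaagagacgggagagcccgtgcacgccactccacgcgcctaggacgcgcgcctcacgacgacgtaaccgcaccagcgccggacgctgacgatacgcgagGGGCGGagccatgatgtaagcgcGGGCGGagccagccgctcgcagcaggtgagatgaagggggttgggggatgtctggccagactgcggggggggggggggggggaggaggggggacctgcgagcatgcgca
Lmbr1: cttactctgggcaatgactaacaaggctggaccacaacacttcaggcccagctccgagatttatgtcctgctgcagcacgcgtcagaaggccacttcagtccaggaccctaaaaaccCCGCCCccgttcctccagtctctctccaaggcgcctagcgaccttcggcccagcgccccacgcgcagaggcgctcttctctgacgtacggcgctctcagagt
The Rnf32 sequence held 2 GC boxes and 29 CpG dinucleotides, and 70% of its bases were G or C. The Lmbr1 sequence held 1 GC box and 15 CpG dinucleotides, and 60.7% of its bases were G or C. Of 32851 RefSeq promoters, 32.7% held a GC box in the 250 bases before the start site. The letters AGGNGGC, a core of CTCF motifs, were in neither sequence on either strand and in 25% of promoters. Such matches describe letters in short windows and say nothing of what binds there.

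Recovered contacts ranged from 1121373 in 2xBorCTCF to 2942790 in intraTAD2, with 1646616 in wild type. Values are given as distance-normalised contact, so that 1 is the average of a map for bins equally far apart, and a log2 ratio of 0 means equal contact in both maps. Brackets hold 95% counting intervals. Because each genotype had 1 library, no test was possible, and the intervals leave out the spread between embryos. A value is called higher or lower where its interval leaves out 0. The background of each count is the share of windows of the same sizes and distances, slid along the same 2 maps, that would be called. For Shh it is pooled over the 12 partner genes listed below, Shh included. It is thus not matched to the size, distance or contact level of Shh alone.

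In wild type both genes contacted Shh far above the average for their distance, and Lmbr1 did so more than Rnf32. Shh contact, over the Shh bins and 1 more on each side, was 5.89 (5.57 to 6.2) for the left part, 5.51 (5.1 to 5.93) for the right part and 3.83 (3.52 to 4.13) for Rnf32. The log2 ratio of left to right was 0.095 (-0.039 to 0.23), within counting error. Both parts stood above Rnf32, the left by 0.62 (0.48 to 0.76) and the right by 0.53 (0.37 to 0.68). Among tiles of 25 kb, the 2 highest for all 3 viewpoints in all 6 maps were chr5:28430001-28455000, which holds no protein-coding gene, and chr5:28455001-28480000, which holds Shh. The tile without a gene had a contact of 5.49 with the left part, 5.87 with the right part and 4.01 with Rnf32 in wild type.

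Partners beyond the domain separated the parts of Lmbr1. Rbm33, a gene past Shh that encodes an RNA-binding protein, had a wild-type contact of 2.43 (2.33 to 2.52) with the left part and 2.95 (2.81 to 3.09) with the right part. Ube3c, a ubiquitin ligase gene on the opposite side, had 0.653 (0.621 to 0.685) with the left part and 1.15 (1.1 to 1.19) with the right part. The right part was thus higher for both, with left-to-right ratios of -0.28 (-0.37 to -0.19) and -0.81 (-0.90 to -0.72). Rnf32 lay at 1.89 for Rbm33 and 0.698 for Ube3c, and for Ube3c the left part and Rnf32 did not differ past counting error, at -0.095 (-0.21 to 0.021). The gene desert (chr5:28475001-29170000) gave another order, with 1.74 (1.71 to 1.77) for the left part, 1.46 (1.42 to 1.5) for the right part and 1.38 (1.35 to 1.41) for Rnf32.

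Along both genes, Shh contact formed one broad rise around the stretch that was left out. In wild type the 8 bins of Rnf32 lay between 3.16 and 4.8. The next 8 bins, the first of Lmbr1 (chr5:29230001-29270000), had a median of 4.42. The 7 bins up to the stretch (chr5:29270001-29305000) had a median of 7.61 and lay between 6.0 and 8.99. On the other side the 5 bins beside the stretch (chr5:29320001-29345000) had a median of 7.02, and the last 6 kept bins (chr5:29345001-29380000) one of 4.43. The limits of these runs were chosen after the values were seen.

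The rise was present in each mutant map. The medians of the 7 bins before the stretch were 8.58, 9.32, 8.77, 7.14 and 6.64 in intraTAD2, intraTAD3, i4CTCF, 2xBorCTCF and 1xBorCTCF. Those of the last 6 bins were 4.18, 4.35, 4.35, 4.05 and 3.42. In all 6 maps the lowest of the former lay above the highest of the latter. The 5 bins past the stretch had medians of 7.03, 7.83, 6.61, 7.64 and 6.21 in the same order. Their lowest lay below the highest of the last 6 in intraTAD2 (4.64 and 5.26), intraTAD3 (5.88 and 5.92) and i4CTCF (4.66 and 5.29). In the other maps it lay above. In wild type the lowest of the 7 bins before the stretch (6.0) lay just below the highest of the 8 bins before them (6.03). In each mutant map it lay above. The highest bin of the left part was 29290001 in 4 mutant maps, with 9.6 (8.8 to 10.4) for intraTAD2, 11.6 (10.6 to 12.5) for intraTAD3, 10.4 (9.06 to 11.7) for i4CTCF and 8.0 (7.17 to 8.84) for 1xBorCTCF. In 2xBorCTCF it was the next bin, with 8.41 (6.15 to 10.7), and in wild type bin 29270001, with 8.99 (7.48 to 10.49). These intervals overlap for many bins of the rise, so its highest bin was not resolved.

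**Figure D1:**
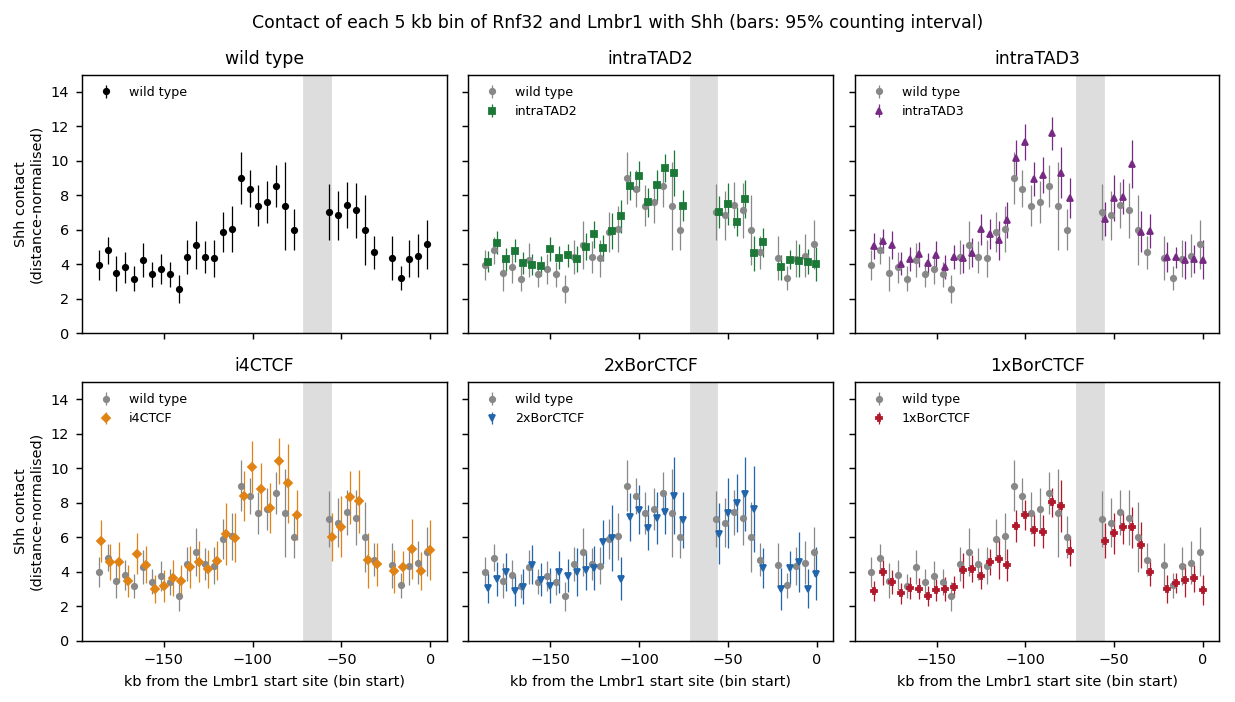
Distance-normalised contact with Shh (y axis, 1 is the average of the map at that distance) of each kept 5 kb bin of Rnf32 and Lmbr1 against distance from the Lmbr1 start site in kb (x axis). Bars are 95% counting intervals; in wild type the 7 bins left of the omitted stretch sit between 6.0 and 8.99, in intraTAD3 they reach 11.6, and no bin of Rnf32 lies above 5.76 in any map.

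The start-site bins lay off the peak. That of Lmbr1 (29375001) had a Shh contact of 5.16 (3.74 to 6.57) in wild type, and the mutant maps had 4.01, 4.27, 5.26, 3.88 and 2.93 in the order above. It rested on 25 to 67 contacts per map, and the fall in 1xBorCTCF, to 2.93 (2.06 to 3.79), was -0.82 (-1.40 to -0.23) against wild type. The start-site bin of Rnf32 (29195001) was the highest of its gene in 4 maps, with 4.8 (4.04 to 5.57) for wild type, 5.25 (4.59 to 5.91) for intraTAD2, 5.34 (4.63 to 6.05) for intraTAD3 and 3.95 (3.24 to 4.66) for 1xBorCTCF. It had 4.56 in i4CTCF and 3.56 in 2xBorCTCF, where other bins of Rnf32 were higher. Contact between both start-site bins rested on 4 to 21 contacts per map, too few to compare maps.

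Against wild type, Shh contact of the left part and of Rnf32 was higher in intraTAD2 and intraTAD3, and in balanced values that of all 3 viewpoints was lower in 1xBorCTCF. For the left part wild type had 5.89, intraTAD2 6.67 and intraTAD3 7.1, i4CTCF had 6.36, and 2xBorCTCF and 1xBorCTCF had 5.6 and 5.15. For Rnf32 wild type had 3.83, intraTAD2 4.41 and intraTAD3 4.63, i4CTCF had 4.24, and 2xBorCTCF and 1xBorCTCF had 3.46 and 3.07. In these balanced values intraTAD2, intraTAD3 and i4CTCF lay above wild type and both BorCTCF maps below it, for the left part and for Rnf32. For the right part wild type had 5.51, intraTAD2 5.38 and intraTAD3 5.97, i4CTCF had 5.54, and 2xBorCTCF and 1xBorCTCF had 5.51 and 4.63, a narrower range.

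In intraTAD2 the ratio to wild type was 0.18 (0.089 to 0.27) for the left part, -0.036 (-0.17 to 0.095) for the right part and 0.21 (0.070 to 0.34) for Rnf32. So 2 of 3 viewpoints were higher, where 7.51% of windows were higher and 7.5% lower in the pooled background. In intraTAD3 the ratios were 0.27 (0.18 to 0.36), 0.11 (-0.019 to 0.25) and 0.27 (0.13 to 0.41), again 2 of 3, where 8.73% of windows were higher and 9.93% lower. In i4CTCF the left part was higher, at 0.11 (0.00040 to 0.22), with 0.0073 (-0.15 to 0.17) for the right part and 0.15 (-0.021 to 0.32) for Rnf32, where 7.13% of windows were higher and 6.99% lower. Without balancing i4CTCF had 0.26 for the left part and 0.23 for the right part. In 2xBorCTCF no viewpoint was called, with -0.072, -0.0014 and -0.14, where 9.77% of windows were higher and 8.45% lower. In 1xBorCTCF 3 of 3 were lower, at -0.19 (-0.29 to -0.094), -0.25 (-0.39 to -0.11) and -0.32 (-0.47 to -0.16), where 10.7% of windows were higher and 8.02% lower. All of these comparisons share the wild-type map. Without the balancing, the 1xBorCTCF ratio turned to 0.054 for the left part and 0.066 for the right part.

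In intraTAD2 the ratio to wild type of the left part exceeded that of the right part, from balanced values, by 0.22 (0.056 to 0.38). Within that map the left part stood above the right part by 0.31 (0.22 to 0.40). Without balancing the ratios to wild type were 0.29 for the left part and 0.14 for the right part, and with the gene body of Shh alone the right part had 0.10. In balanced values the difference of ratios was not past counting error in the other maps, where intraTAD3 had 0.16 (-0.0052 to 0.32), i4CTCF 0.10 (-0.090 to 0.30), 2xBorCTCF -0.071 (-0.28 to 0.14) and 1xBorCTCF 0.057 (-0.12 to 0.23). Within the right part, the bins past the domain border at 29355001 had a Shh contact of 4.31 (3.78 to 4.84) in wild type and 3.27 (2.91 to 3.63) in 1xBorCTCF, a ratio of -0.40 (-0.64 to -0.16). The bins up to the border had -0.18 (-0.35 to 0.00068) there.

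Set against intraTAD2 instead, the BorCTCF maps had lower Shh contact for Rnf32 and the left part. In 2xBorCTCF the ratios were -0.25 (-0.35 to -0.15) for the left part, 0.035 (-0.12 to 0.19) for the right part and -0.35 (-0.52 to -0.19) for Rnf32. This made 2 of 3 lower, where 10.8% of windows were higher and 9.51% lower in the background. Without balancing 2xBorCTCF had -0.37 for the left part, and for the right part the ratio turned to -0.17. In 1xBorCTCF all 3 were lower in balanced values, at -0.37 (-0.45 to -0.29), -0.21 (-0.33 to -0.097) and -0.53 (-0.65 to -0.40), where 13.8% of windows were higher and 9.93% lower. Without balancing it had -0.24 for the left part and -0.075 for the right part. The ratio of the left part lay below that of the right part in both, with left minus right at -0.29 (-0.47 to -0.10) and -0.16 (-0.30 to -0.017).

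The i4CTCF map did not differ from intraTAD2 past counting error for any viewpoint, with -0.068 (-0.16 to 0.023), 0.044 (-0.095 to 0.18) and -0.057 (-0.20 to 0.089), where 6.83% of windows were higher and 7.08% lower. In intraTAD3 the left part, at 0.091 (0.023 to 0.16), and the right part, at 0.15 (0.044 to 0.26), were higher than in intraTAD2, and Rnf32 had 0.068 (-0.040 to 0.18), where 5.76% of windows were higher and 6.07% lower. Between the BorCTCF maps, 2xBorCTCF was higher for the left part, at 0.12 (0.011 to 0.23), and the right part, at 0.25 (0.088 to 0.41), with 0.18 (-0.0056 to 0.36) for Rnf32, where 4.16% of windows were higher and 4.95% lower. Without balancing this turned to -0.13 for the left part and -0.095 for the right part.

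The desert was divided into 7 segments of about 100 kb, numbered from Shh, which gave 21 pairs of viewpoint and segment. Against wild type, 4 higher and 1 lower were counted in intraTAD2, beside backgrounds of 11.3% and 12.4%. Counts were 8 higher and 0 lower in intraTAD3 (15.3% and 16.2%) and 3 higher and 0 lower in i4CTCF (9.95% and 9.23%). They were 3 higher and 2 lower in 2xBorCTCF (14.2% and 11.1%) and 3 higher and 4 lower in 1xBorCTCF (15.5% and 10.8%). Against intraTAD2, i4CTCF had 3 higher and 3 lower (11.9% and 10.7%) and intraTAD3 2 higher and 2 lower (10.6% and 10.3%). There 2xBorCTCF had 1 higher and 6 lower (17.1% and 12%), and 1xBorCTCF 2 higher and 6 lower (23.3% and 14.1%). In 2xBorCTCF against 1xBorCTCF they were 0 higher and 0 lower (6.28% and 6.2%).

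Segment 1, next to Shh (chr5:28475001-28575000), was for Rnf32 higher in intraTAD2 and intraTAD3 and lower in both BorCTCF maps. For this pair wild type had 2.34, intraTAD2 2.57 and intraTAD3 2.67, i4CTCF had 2.24, and 2xBorCTCF and 1xBorCTCF had 2.09 and 2.05, so that i4CTCF lay below wild type as well, at -0.063 (-0.22 to 0.094), within counting error. The other ratios to wild type were 0.13 (0.013 to 0.25) in intraTAD2, 0.19 (0.067 to 0.31) in intraTAD3, -0.16 (-0.32 to -0.0068) in 2xBorCTCF and -0.19 (-0.32 to -0.053) in 1xBorCTCF. The right part was lower in both BorCTCF maps as well, at -0.25 (-0.41 to -0.082) and -0.24 (-0.38 to -0.097), although its Shh contact in 2xBorCTCF was not past counting error.

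Segment 3 (chr5:28675001-28775000) went the other way, and all 3 viewpoints contacted it more in both BorCTCF maps than in wild type. For the left part wild type had 1.76, intraTAD2 1.89 and intraTAD3 1.83, i4CTCF had 1.958, and 2xBorCTCF and 1xBorCTCF had 2.0 and 2.0, so that every mutant map lay above wild type. The ratios were 0.19 (0.11 to 0.26) in 2xBorCTCF, 0.18 (0.12 to 0.25) in 1xBorCTCF, 0.16 (0.080 to 0.23) in i4CTCF, 0.11 (0.046 to 0.17) in intraTAD2 and 0.057 (-0.0071 to 0.12) in intraTAD3. For the right part both BorCTCF maps had 0.15 and 0.16. For Rnf32 they had 0.12 and 0.10, below its value of 0.17 in intraTAD2.

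Windows of 20 kb over all 34 member bins, chosen after the values were seen, placed part of this in chr5:28675001-28695000. There wild type had 1.68, intraTAD2 1.98 and intraTAD3 1.78, i4CTCF had 1.78, and 2xBorCTCF and 1xBorCTCF had 2.01 and 2.04. Over these 34 bins together, the maps of intraTAD2 and of both BorCTCF genotypes stood above the other 3. Among 34 windows of the desert it had the highest ratio to wild type in intraTAD2, at 0.23 (0.14 to 0.32), and in 1xBorCTCF, at 0.28 (0.18 to 0.38). It came second in 2xBorCTCF, at 0.25 (0.14 to 0.37). In i4CTCF, whose name also holds intraTAD2, the ratio was 0.084 (-0.033 to 0.20). The viewpoints did not all show this division of the maps. Both intraTAD2 and 1xBorCTCF were above wild type for all 3. For the right part intraTAD3 was above wild type as well, at 0.26 (0.062 to 0.46). The 2xBorCTCF ratio was within counting error for the left part, at 0.15 (-0.0039 to 0.30), and for Rnf32, at 0.20 (-0.0084 to 0.40). For the right part it was 0.45 (0.22 to 0.68).

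Segment 5 (chr5:28870001-28970000) was higher than wild type in intraTAD3 for all 3 viewpoints, at 0.10 (0.040 to 0.16) for the left part, 0.16 (0.065 to 0.26) for the right part and 0.087 (0.0067 to 0.17) for Rnf32. It was called higher for none of them in the other mutant maps. For the right part wild type had 1.19, intraTAD2 1.18 and intraTAD3 1.34, i4CTCF had 1.11, and 2xBorCTCF and 1xBorCTCF had 1.12 and 1.13. Against intraTAD2 it was higher in intraTAD3 for the left part, at 0.099, and the right part, at 0.18, and Rnf32 had 0.035.

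**Figure D2:**
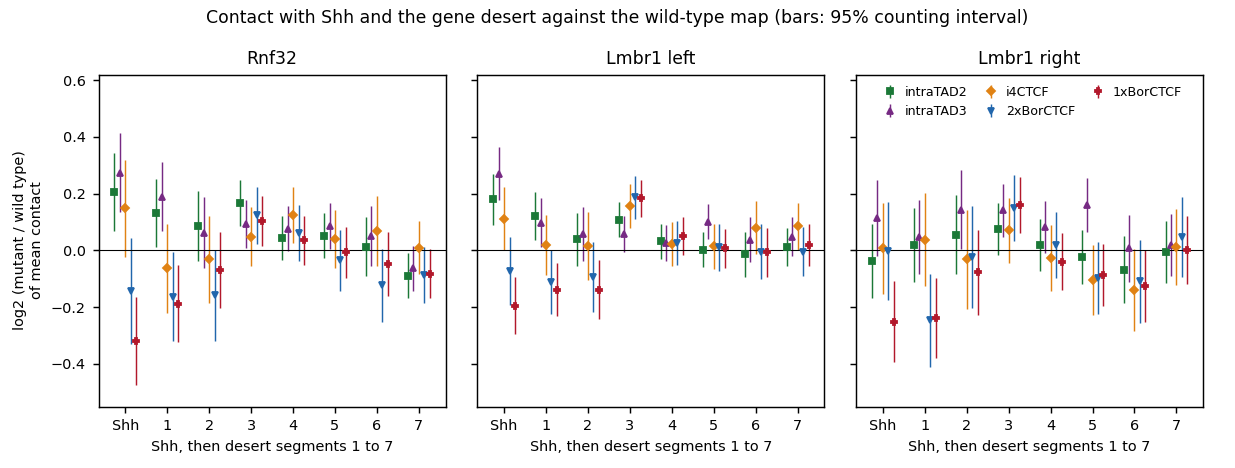
Log2 ratio of contact in each mutant map to wild type (y axis) with Shh and with desert segments 1 to 7, numbered from Shh (x axis), for Rnf32 and the left and right parts of Lmbr1; bars are 95% counting intervals. For Rnf32 segment 1 stands at 0.19 in intraTAD3 and -0.19 in 1xBorCTCF, and segment 3 is above 0 in every map for all viewpoints.

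Within Lmbr1, contact between the left and the right part was higher in intraTAD3 than in the other maps. Here wild type had 0.738, intraTAD2 0.733 and intraTAD3 0.885, i4CTCF had 0.728, and 2xBorCTCF and 1xBorCTCF had 0.749 and 0.744. The ratio to wild type was 0.26 (0.19 to 0.33) in intraTAD3 and not past counting error in the other mutant maps, with -0.0095, -0.020, 0.021 and 0.011. Without balancing all 5 were above wild type, with 0.37 in intraTAD3, 0.097 in intraTAD2, 0.10 in i4CTCF, 0.15 in 2xBorCTCF and 0.20 in 1xBorCTCF. The closest bins differed most. At 20 to 50 kb the contact was 1.27 (1.22 to 1.33) in intraTAD3 and 0.764 (0.695 to 0.834) in wild type, a ratio of 0.73 (0.59 to 0.88). At 50 to 75 kb the ratio was 0.24 (0.11 to 0.36), at 75 to 100 kb 0.14 (0.015 to 0.27) and at 100 to 150 kb 0.20 (0.061 to 0.34).

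In the same map the stretch between the parts was nearly empty. Bins 29305001 and 29310001 had 0 contacts with other bins in intraTAD3, against 2826 and 7311 in wild type. Bin 29315001 had 739 against 7929. The other mutant maps had 1788 or more in each of the 3 bins. With distances over the stretch counted 15 kb shorter in intraTAD3, a setting added after the values were seen, the left-to-right ratio to wild type turned to -0.095.

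**Figure D3:**
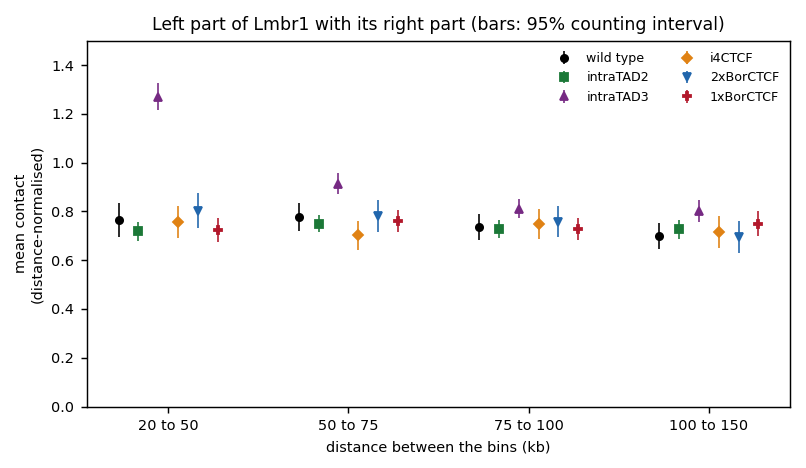
Mean distance-normalised contact between the left and right parts of Lmbr1 (y axis) by distance between bins in kb, as the files number them (x axis), for 6 maps with 95% counting intervals. In intraTAD3 the closest class stands at 1.27, and the other 5 maps lie between 0.718 and 0.803.

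The contact of Rnf32 with the left part depended on the scaling. In balanced values wild type had 0.88 and the mutant maps lay between 0.882 and 0.924. Of these, 1xBorCTCF was past counting error, at 0.071, and the others were not, with 0.0033, 0.021, 0.043 and 0.058 for intraTAD2, intraTAD3, i4CTCF and 2xBorCTCF. Without balancing, intraTAD3 had 0.10, i4CTCF 0.12, and 2xBorCTCF and 1xBorCTCF 0.18 and 0.18. As a share of the map total, without a distance expectation, intraTAD2 had 0.10, intraTAD3 0.16, i4CTCF 0.15 and 2xBorCTCF 0.16. With the right part wild type had 0.917, intraTAD2 0.843 and intraTAD3 0.926, i4CTCF had 0.851, and 2xBorCTCF and 1xBorCTCF had 0.837 and 0.869. It was lower than wild type in intraTAD2, at -0.12, and in 2xBorCTCF, at -0.13. The intraTAD3 ratio was 0.015, and with distances over the stretch counted 15 kb shorter it was -0.14 (-0.24 to -0.035).

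The 12 listed genes, Shh included, gave 36 pairs of viewpoint and gene. In intraTAD2 6 of 36 pairs were higher and 3 lower than wild type, and in intraTAD3 7 of 36 pairs were higher and 2 lower. In i4CTCF 5 of 36 pairs were higher and 4 lower, in 2xBorCTCF 7 of 36 pairs were higher and 1 lower and in 1xBorCTCF 4 of 36 pairs were higher and 6 lower. The shares of higher pairs were 16.7%, 19.4%, 13.9%, 19.4% and 11.1% and those of lower pairs 8.33%, 5.56%, 11.1%, 2.78% and 16.7% for intraTAD2, intraTAD3, i4CTCF, 2xBorCTCF and 1xBorCTCF, beside the backgrounds given with Shh. Part of these counts are the Shh pairs already described. Of the 33 pairs without Shh, intraTAD2 had 4 higher and 3 lower, intraTAD3 5 higher and 2 lower, i4CTCF 4 higher and 4 lower, 2xBorCTCF 7 higher and 1 lower and 1xBorCTCF 4 higher and 3 lower. Their higher shares were 12.1%, 15.2%, 12.1%, 21.2% and 12.1%, beside backgrounds of 7.51%, 8.73%, 7.13%, 9.77% and 10.7%. The lower shares were 9.09%, 6.06%, 12.1%, 3.03% and 9.09%, beside 7.5%, 9.93%, 6.99%, 8.45% and 8.02%. These backgrounds include Shh. The median ratio over the 36 pairs lay between -0.018 and 0.064.

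Rbm33 was higher in intraTAD2 and intraTAD3 and lower in 1xBorCTCF for both parts of Lmbr1. For the left part intraTAD2 had 0.14 (0.069 to 0.21) and intraTAD3 0.21 (0.14 to 0.28), both higher, and 1xBorCTCF was lower at -0.10 (-0.18 to -0.023). For the right part, whose Shh contact was not called higher, Rbm33 had 0.16 (0.079 to 0.24), 0.21 (0.12 to 0.29) and -0.11 (-0.20 to -0.014) in these maps. For Rnf32 it was higher in intraTAD3, at 0.10 (0.0039 to 0.20).

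Dpp6, which encodes a potassium channel subunit and lies only partly in the map, was higher with the right part in all 5 mutant maps. For this pair wild type had 1.05, intraTAD2 1.26 and intraTAD3 1.32, i4CTCF had 1.34, and 2xBorCTCF and 1xBorCTCF had 1.33 and 1.26, so that wild type lay lowest. The ratios ran from 0.25 to 0.34. Against the median of the other 5 maps in place of wild type, the ratio turned to -0.073 in intraTAD2 and -0.067 in 1xBorCTCF.

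Other genes on the side of Shh gave scattered changes. Paxip1, which acts in DNA repair, was higher with the left part in intraTAD2 at 0.20, i4CTCF at 0.27, 2xBorCTCF at 0.25 and 1xBorCTCF at 0.28. In intraTAD2 this turned to -0.050 against the median of the other maps. En2, a homeobox gene of the midbrain and hindbrain, was higher with the left part in 2xBorCTCF, at 0.33. Insig1, which restrains cholesterol synthesis, was higher with Rnf32 in 1xBorCTCF, at 0.44.

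On the side away from Shh, every pair with a listed gene that was called against wild type was lower. Tiles of 25 kb past these genes went both ways. With the left part, the tile of Selenoi was higher in 2xBorCTCF, at 0.73 (0.26 to 1.21), and that of Il6 lower in intraTAD2, at -0.43 (-0.76 to -0.10). Mnx1, a homeobox gene of motor neurons, had a contact of 0.418 (0.371 to 0.465) with the left part in wild type and 0.341 (0.291 to 0.391) in i4CTCF, a ratio of -0.29. Dnajb6, a chaperone gene, was lower with Rnf32 in intraTAD2, at -0.27, intraTAD3, at -0.30, and i4CTCF, at -0.27. Ube3c was lower with Rnf32 in intraTAD2, at -0.17, and intraTAD3, at -0.16. With the left part it was lower in intraTAD2, at -0.17, i4CTCF, at -0.13, and 1xBorCTCF, at -0.11, and the last 2 turned to 0.013 and 0.077 without balancing.

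**Figure D4:**
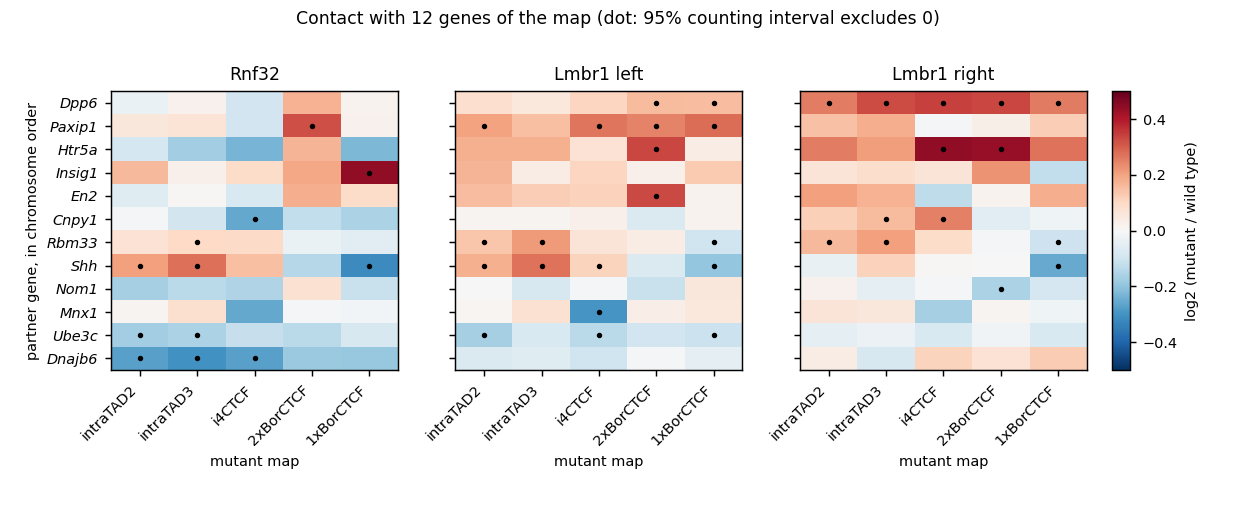
Log2 ratio of contact in each mutant map to wild type (colour scale) for 12 partner genes in chromosome order (rows) and 5 mutant maps (columns), with 1 panel per viewpoint and a dot where the 95% counting interval leaves out 0. Dpp6 has a dot in all 5 columns of the right part, between 0.25 and 0.34, and Shh is below 0 with a dot for all 3 viewpoints in 1xBorCTCF, from balanced values.

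Against intraTAD2, 0 of 36 pairs were higher and 4 lower in i4CTCF, beside backgrounds of 6.83% and 7.08%. The lower pairs were Mnx1 with the left part, at -0.30, and with the right part, at -0.23, En2 with the right part, at -0.33, and Cnpy1 with Rnf32, at -0.25. In 2xBorCTCF 3 of 36 pairs were higher and 6 lower (10.8% and 9.51%), and in 1xBorCTCF 1 of 36 pairs were higher and 9 lower (13.8% and 9.93%). Of the 33 pairs without Shh, 2xBorCTCF had 3 higher and 4 lower and 1xBorCTCF 1 higher and 6 lower. These are shares of 9.09% and 12.1% in 2xBorCTCF and of 3.03% and 18.2% in 1xBorCTCF. Rbm33 was lower with both parts of Lmbr1 in 2xBorCTCF, at -0.10 and -0.17, and with all 3 viewpoints in 1xBorCTCF, at -0.24, -0.27 and -0.12. In intraTAD3 4 of 36 pairs were higher and 0 lower (5.76% and 6.07%), and without Shh 2 higher, a share of 6.06%, and 0 lower of 33. In 2xBorCTCF against 1xBorCTCF 7 of 36 pairs were higher and 1 lower (4.16% and 4.95%), and without Shh 5 higher and 1 lower of 33. The shares without Shh were 15.2% and 3.03%. Among the higher pairs were those of Htr5a, a serotonin receptor gene, with the left part, at 0.29, and with Rnf32, at 0.39.

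The right part, which spans the border of the domain, had the lowest share of contacts in it. Shares are of balanced contact at 20 kb or more, without a distance expectation, so they also depend on where a viewpoint lies. The domain was chr5:28440001-29355000, with borders found in the wild-type map and used for all 6 maps. They were the points of least contact across them, sought only close to Shh and inside Lmbr1. In wild type 65.1% of the contacts of the left part, 65.5% of those of Rnf32 and 45.5% of those of the right part lay in it. The side toward Mnx1 took 17.5%, 17.8% and 36.0%.

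For Rnf32 the domain share reached 68.9%, 69.5% and 68.5% with intraTAD2, intraTAD3 and i4CTCF. These lay 3.38 (2.68 to 4.09), 3.95 (3.24 to 4.67) and 3.0 (2.13 to 3.87) percentage points above wild type. The differences were 1.01 (0.106 to 1.91) in 2xBorCTCF and 0.851 (0.0794 to 1.62) in 1xBorCTCF, and for 2xBorCTCF the sign turned, to -0.156, with partners at 50 kb or more. On the Mnx1 side the difference of Rnf32 from wild type was -2.13 (-2.67 to -1.58) points in intraTAD2. The left part gained 1.73 (1.19 to 2.28), 2.1 (1.54 to 2.66) and 1.11 (0.436 to 1.78) points in the first 3 maps, and the BorCTCF maps were not past counting error.

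For the right part intraTAD3 alone was higher in the domain, at 48.1%, by 2.53 (1.78 to 3.28) points. In that map the stretch between the right part and the rest of the domain was nearly empty. Shares with distances over the stretch counted 15 kb shorter were not computed for any viewpoint, so whether this bears on the gain was not tested. The i4CTCF map, with a difference of -0.935 (-1.85 to -0.0203), and 1xBorCTCF, with -1.15 (-1.95 to -0.349), were lower. On the Mnx1 side the right part gained 1.41 (0.515 to 2.31) points in 2xBorCTCF and 1.4 (0.644 to 2.16) in 1xBorCTCF.

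**Figure D5:**
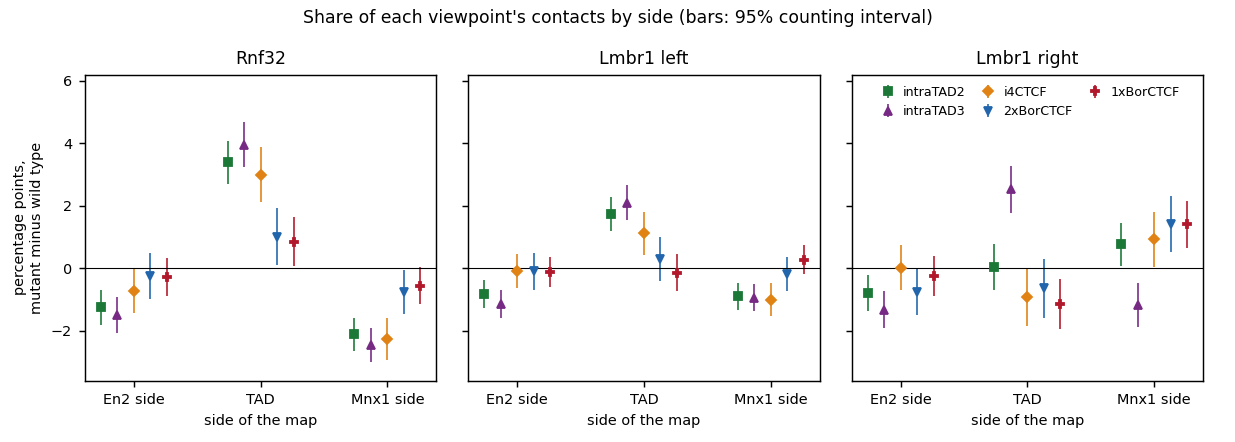
Change against wild type, in percentage points, of the share of each viewpoint's contacts (y axis) on the En2 side, in the domain (TAD) and on the Mnx1 side (x axis) for 5 mutant maps; bars are 95% counting intervals. In the domain, Rnf32 lies 3.95 points above wild type in intraTAD3, and the right part of Lmbr1 is above it past counting error in intraTAD3 alone. Shares have no distance expectation, and the stretch beside the right part was nearly empty in intraTAD3.

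Over 25 kb tiles of the whole map, 327 pairs of viewpoint and tile were compared, with a log2 ratio beyond 0.32 in either direction as the threshold. The shares past it against wild type were 9.17%, 10.7%, 11.9%, 17.4% and 9.48% for intraTAD2, intraTAD3, i4CTCF, 2xBorCTCF and 1xBorCTCF. Backgrounds were 14.5%, 15.7%, 20.8%, 24.5% and 18.4%. The shares differed between viewpoints, with 3.7% of tiles past the threshold for the left part and 16.4% for Rnf32 in intraTAD2, and 4.63% and 16.4% in intraTAD3. The right part lay between them in both maps, at 7.34% in intraTAD2. In both BorCTCF maps the right part had the highest share. The backgrounds pool the viewpoints, and the left part has 16 bins and Rnf32 8. Fewer bins leave fewer contacts per tile, so whether the shares differ past counting error was not tested. Against intraTAD2, i4CTCF had 6.42%, 2xBorCTCF 12.8%, 1xBorCTCF 8.56% and intraTAD3 1.83%, beside 17.5%, 21.4%, 16.3% and 9.54%. In 2xBorCTCF against 1xBorCTCF the share was 7.34%, beside 18.1%.

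Some tiles recurred among the extremes. For the left part, chr5:27980001-28005000, with no protein-coding gene, was the highest tile in 3 maps, with 0.70 (0.34 to 1.06) for intraTAD2, 0.64 (0.21 to 1.07) for intraTAD3 and, for i4CTCF, 0.67 (0.14 to 1.21). For Rnf32 it was the highest in i4CTCF, at 1.05 (0.38 to 1.71). It was also the lowest tile of the right part in intraTAD2, at -0.32 (-0.96 to 0.32). The tile of Il6, a cytokine gene (chr5:30005001-30030000), was the lowest of the left part with -0.43 (-0.76 to -0.10) for intraTAD2 and -0.44 (-0.77 to -0.11) for intraTAD3, and of Rnf32 in intraTAD2, at -0.69 (-1.10 to -0.27). In 1xBorCTCF the lowest tile of both parts of Lmbr1 was chr5:28505001-28530000 in desert segment 1, at -0.30 (-0.49 to -0.11) for the left and -0.48 (-0.76 to -0.19) for the right part. For Rnf32 it was chr5:28430001-28455000 beside Shh, at -0.59 (-0.95 to -0.24). For the right part in intraTAD3 it was the tile with the emptied stretch, chr5:29305001-29330000, at -1.19 (-1.78 to -0.60) from 31 contacts.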

How the data were processed

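Capture Hi-C of 5 mutant limb bud samples was set beside a wild-type map; 1 column of values belongs to no sample. The deposited values are a contact signal for pairs of 5 kb bins, which the authors balanced map by map with the Knight-Ruiz method after keeping mapping quality 30 or more, per the file names. Bowtie2 2.2.6 and the genome builds mm10 and mm9 are listed in the submitters' processing notes; what each was used for was not given. Whole contacts were recovered as the value divided by a factor of each bin, with 100% whole within 0.01, a step tested on simulated data. A bin was dropped from every map (10 bins) if its partners in one map numbered less than 25% of the median. Mean contacts with partners 20 kb or more away were divided by the mean for that distance (Python 3.11.15, numpy 2.4.6). Intervals are Poisson errors weighted by the bin factors, for counting error only. Background windows overlap one another.

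The members, lists and settings were chosen with earlier results of these data known. Partners named are from 12 listed genes and from the extreme tiles. For each viewpoint and comparison, the 2 highest and 2 lowest tiles with at least 20 contacts were found, and only some of them are named. Alternatives changed the expectation, balancing, least distance, bins, reference map, tile size and fold. Gene positions and sequences are from RefSeq.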

Additional observations from a re-analysis of the deposited data

How the results depend on the processing

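No paired analysis was possible because each genotype had 1 library, and leaving out a replicate was not possible for the same reason. Of 1071 alternative values of 155 summary results, 969 stayed within the counting interval or within 1.5 times, 93 lay outside it and 9 changed direction. Of the 155 results 75 were past counting error, and 9 of those 75 changed direction under some setting. Sign changes of the results within counting error were not counted as changed direction. Direction also changed in 10 other values for single partner genes. The shortened distances, the single bins and the 20 kb windows were chosen after the data were seen. Depth limits single bins most: 25 to 67 contacts joined Shh to the Lmbr1 start-site bin, and tiles far from the members rest on few contacts. Values that moved follow, as log2 ratios to wild type unless another map is named. In this list the word turned marks a changed direction of a value past counting error in the main setting, and the cause was not tested. Values within counting error that changed sign are listed without the word. For Shh contact of the right part without balancing, examples are -0.036 to 0.14 (intraTAD2) and 0.035 to -0.17 (2xBorCTCF to intraTAD2).

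With recovered contacts in place of balanced values, Nom1 contact of the right part was 0.028 (1xBorCTCF to intraTAD2, turned) and Shh contact of the left part was -0.24 (1xBorCTCF to intraTAD2), 0.054 (1xBorCTCF, turned), -0.13 (2xBorCTCF to 1xBorCTCF, turned), -0.37 (2xBorCTCF to intraTAD2), 0.26 (i4CTCF), 0.29 (intraTAD2). Shh contact of the right part was -0.075 (1xBorCTCF to intraTAD2), 0.066 (1xBorCTCF, turned), -0.095 (2xBorCTCF to 1xBorCTCF, turned), -0.17 (2xBorCTCF to intraTAD2), 0.23 (i4CTCF), 0.14 (intraTAD2) and Shh contact of Rnf32 was -0.033 (2xBorCTCF to 1xBorCTCF). Ube3c contact of the left part was 0.077 (1xBorCTCF, turned), 0.013 (i4CTCF, turned) and contact of the left part with the right part was 0.10 (1xBorCTCF to intraTAD2), 0.20 (1xBorCTCF), 0.15 (2xBorCTCF), 0.10 (i4CTCF), 0.097 (intraTAD2), 0.37 (intraTAD3). Contact of the left part with Rnf32 was 0.18 (1xBorCTCF), 0.12 (2xBorCTCF to intraTAD2), 0.18 (2xBorCTCF), 0.12 (i4CTCF), 0.10 (intraTAD3) and desert contact of the left part was -0.038 (1xBorCTCF to intraTAD2), 0.058 (1xBorCTCF), -0.029 (2xBorCTCF to intraTAD2), 0.066 (2xBorCTCF), 0.096 (intraTAD2), 0.12 (intraTAD3). Desert contact of the right part was -0.023 (1xBorCTCF to intraTAD2), 0.019 (1xBorCTCF, turned), -0.018 (2xBorCTCF to intraTAD2), 0.024 (2xBorCTCF), 0.12 (intraTAD3 to intraTAD2), 0.16 (intraTAD3) and desert contact of Rnf32 was -0.11 (1xBorCTCF), 0.064 (2xBorCTCF to 1xBorCTCF), -0.066 (2xBorCTCF to intraTAD2), -0.050 (i4CTCF), 0.021 (intraTAD2). The share of tiles past the fold was 4.28% (intraTAD3 to intraTAD2) and share in points of the left part on the En2 side was -1.63 (intraTAD3). Share in points of Rnf32 on the En2 side was -1.01 (2xBorCTCF) and share in points of Rnf32 on the Mnx1 side was -1.53 (i4CTCF). As a share of the map total, without a distance expectation, Cnpy1 contact of the right part was 0.060 (1xBorCTCF to intraTAD2, turned), -0.066 (intraTAD3, turned) and Cnpy1 contact of Rnf32 was 0.034 (1xBorCTCF to intraTAD2, turned). Paxip1 contact of the left part was -0.042 (intraTAD2, turned) and contact of the left part with the right part was 0.42 (intraTAD3 to intraTAD2), 0.45 (intraTAD3). Contact of the left part with Rnf32 was 0.0022 (1xBorCTCF to intraTAD2), 0.059 (2xBorCTCF to 1xBorCTCF), 0.16 (2xBorCTCF), 0.15 (i4CTCF), 0.10 (intraTAD2), 0.16 (intraTAD3) and desert contact of the left part was -0.036 (1xBorCTCF to intraTAD2). Desert contact of the right part was -0.039 (1xBorCTCF to intraTAD2) and desert contact of Rnf32 was -0.086 (1xBorCTCF to intraTAD2). Against the median of the other 5 maps, Dpp6 contact of the right part was -0.067 (1xBorCTCF, turned), -0.073 (intraTAD2, turned) and Paxip1 contact of the left part was -0.050 (intraTAD2, turned). Shh contact of the left part was -0.31 (1xBorCTCF) and contact of the right part with Rnf32 was 0.12 (intraTAD3). Desert contact of the left part was -0.071 (1xBorCTCF), -0.061 (2xBorCTCF). With the expectation taken without the viewpoints, Shh contact of the left part was -0.47 (1xBorCTCF to intraTAD2), 0.37 (intraTAD3) and desert contact of the left part was -0.11 (1xBorCTCF to intraTAD2). Desert contact of the right part was -0.14 (1xBorCTCF to intraTAD2). With the gene body of Shh alone, Shh contact of the right part was 0.10 (intraTAD2), 0.26 (intraTAD3). With partners at 50 kb or more, contact of the left part with the right part was 0.18 (intraTAD3 to intraTAD2), 0.18 (intraTAD3) and share in points of the left part in the domain was -0.415 (2xBorCTCF), 1.42 (intraTAD3). Share in points of Rnf32 in the domain was -0.156 (2xBorCTCF, turned). With the right part past the border alone, Shh contact of the right part was -0.40 (1xBorCTCF), -0.13 (2xBorCTCF to intraTAD2), -0.21 (2xBorCTCF) and contact of the left part with the right part was 0.096 (1xBorCTCF), 0.066 (intraTAD2), 0.14 (intraTAD3 to intraTAD2). Contact of the right part with Rnf32 was 0.15 (1xBorCTCF to intraTAD2). With the right part up to the border alone, contact of the left part with the right part was 0.36 (intraTAD3 to intraTAD2). With distances over the stretch shortened by 15 kb in intraTAD3, contact of the left part with the right part was -0.086 (intraTAD3 to intraTAD2, turned), -0.095 (intraTAD3, turned) and contact of the right part with Rnf32 was -0.016 (intraTAD3 to intraTAD2, turned), -0.14 (intraTAD3). With a 1.5-fold threshold, the share of tiles past the fold was 0.306% (1xBorCTCF to intraTAD2), 2.14% (1xBorCTCF), 0.917% (2xBorCTCF to 1xBorCTCF), 2.45% (2xBorCTCF to intraTAD2), 3.36% (2xBorCTCF), 0.612% (i4CTCF to intraTAD2), 3.06% (i4CTCF), 2.75% (intraTAD2), 0.306% (intraTAD3 to intraTAD2), 1.83% (intraTAD3). With tiles of 50 kb, the share of tiles past the fold was 2.45% (1xBorCTCF to intraTAD2), 3.68% (1xBorCTCF), 2.45% (2xBorCTCF to 1xBorCTCF), 6.13% (2xBorCTCF to intraTAD2), 10.4% (2xBorCTCF), 2.45% (i4CTCF to intraTAD2), 6.75% (i4CTCF), 4.29% (intraTAD2), 5.52% (intraTAD3).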

Other observations

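The contact pattern of each viewpoint over the 25 kb tiles of the map was set beside that of 19 other protein-coding genes, over tiles at least 100 kb from both, as a median Spearman rho over 6 maps. Brackets with 2 values here hold the lowest and highest rho over the maps, not counting intervals. The left part of Lmbr1 and Rnf32 had 0.943 (0.908 to 0.952), the left and right parts 0.853 (0.825 to 0.907) and the right part and Rnf32 0.849 (0.795 to 0.923). The left part and Rnf32 share a bin. No other gene came close: the most alike were Ube3c (0.444), Nom1 (0.410) and Mnx1 (0.404) for the right part, Htr5a (0.135), Mnx1 (0.090) and Ube3c (0.060) for the left part, and Mnx1 (0.174), Htr5a (0.149) and Nom1 (0.111) for Rnf32. These are descriptions over 87 to 98 tiles that share each map's depth, and tiles are not independent.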
